A study of Mus musculus with 11 samples.

Results

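The genes described here encode the proteins that recognise splice sites and build the spliceosome: the SR proteins (symbols beginning with Srsf), the heterogeneous nuclear ribonucleoproteins (hnRNPs, symbols beginning with Hnrnp), the proteins of the small nuclear ribonucleoproteins (snRNPs, symbols beginning with Snrp), the SF3a and SF3b subunits of the U2 snRNP, and the RNA helicase Ddx39b. They were chosen by symbol, without rows named as pseudogenes by a suffix, which gave 54 of the 32469 gene symbols in the deposited table: 11 Srsf, 20 Hnrnp, 13 Snrp, 3 Sf3a and 6 Sf3b rows, and Ddx39b. Their counts were compared between 5 libraries of untreated mice and 6 libraries of mice given anti-LAG-3 (group aLAG3). All mice were wild-type C57BL/6 animals with tumors of LLC (Lewis lung carcinoma), a transplantable line of the same strain, and treated mice received 200 µg of the blocking antibody clone C9B7W into the peritoneum on days 14 and 16 after inoculation. LAG-3 is an inhibitory receptor of exhausted T cells. Each library held the sorted precursor exhausted CD8 T cells of a tumor of 1 mouse (a gate that included CD8+, PD-1+, Ly108+ and TIM-3-), on the same gate in both groups. The mice were females bought at 8 weeks of age, and the age at inoculation is not given in the sources used here. By the study's text, the tumors of a mouse were excised in sequence in this experiment, the first on day 14, when treatment began. It places the tumors used here a few days after that start. The labels and the study's text differ on the day the tumors were taken.

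Introns are removed by the spliceosome, in which the U1 snRNP pairs with the donor splice site and the U2 snRNP, held to the branch point by SF3a and SF3b, with the acceptor side. SR proteins mostly bind exons and favour their inclusion, hnRNPs often act against them, and both are themselves controlled through alternative exons. In T cells this balance is known for the variable exons of Ptprc, the gene of the surface phosphatase CD45, which hnRNPLL and hnRNPL act on during activation. The counts are per gene, so they measure the abundance of the messages of these factors and hold no information on which exons were used. In sorted bulk samples, fewer cells of a kind that makes a message and less of that message per cell cannot be told apart.

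Library totals ran from 313524 to 1901374 counts, and the 54 genes took 1.12% to 1.31% of them. Levels are given as CPM, counts per 1000000 reads of the TMM-normalized library size. A floor of 3 counts was worth 1.58 CPM in the deepest library and 9.57 CPM in the shallowest, for counting error only. Defining markers of the sort were present, with Pdcd1 and Slamf6 together at 577 to 853 CPM, and Havcr2, the gene of the excluded TIM-3, stood at 1.77 to 18.9 CPM in the untreated and 0 to 6.65 CPM in the aLAG3 libraries. The 6 CD8 T cell genes (Cd3d, Cd3e, Cd3g, Cd8a, Cd8b1 and Trac) summed to between 4846 and 5388 CPM, whereas Cd4 stayed at or below 2.22 CPM. These marker sums and the floor use total counts. The 6 myeloid markers summed to 18.9 to 53.0 CPM in the untreated libraries and 22.5 to 137 CPM in the aLAG3 libraries. The highest of these sums was in aLAG3 library 10, which was also the shallowest library, had the smallest share of counts on the 54 genes and gave the lowest value of 15 of the 52 tested genes. How many of all tested genes were lowest there was not counted, so this is not read as a trait of the members. The titles carry a primer barcode and a number after the letters ExT, whose meaning is not given in the sources used here. Of 8 ExT numbers, ExT18083 was the only one with libraries of both groups.

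No gene of the spliceosome set passed the test between aLAG3 and untreated mice. Of the 54 genes, 52 had enough counts to be tested, and 0 of these had an adjusted p under 0.05 (edgeR, quasi-likelihood, with Benjamini-Hochberg adjustment over all 6949 tested genes, of which 0.0% were called). At an unadjusted p under 0.05 the same test marked 2 genes, Snrpa and Hnrnpu, which is 3.85% of the tested members beside 3.73% of all tested genes. Both were higher in aLAG3, as were 1.74% of all tested genes at that p, and 1.99% were lower. DESeq2 gave 0 at an adjusted p under 0.05 and 1 at an unadjusted p, Snrpa, beside 2.35% of all tested genes. No tested member had CPM values that separated the groups, as 0.475% of all tested genes did, 0.216% with the higher values in aLAG3.

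The log2 fold changes of the 52 genes lay between -0.42 (Hnrnpa0) and 0.50 (Snrpa), with 30 above and 22 below 0 and a median of 0.0090, beside a median of 0.0045 over all tested genes. Their precision was above the average of the table, with a median standard error of 0.13 on the log2 scale against 0.19 for all tested genes. The median level of the 52 genes was also higher, 147 against 49.9 CPM, and its part in the precision was not tested. For 45 of the 52 genes (86.5%) the 95% interval of the fold change stayed within 1.5-fold in either direction. This held for 64.9% of all tested genes and for 81.0% of 158 other tested splicing genes (median 74.9 CPM). The exceptions among the 52 genes were Snrpa, Hnrnpu, Hnrnpa0, Hnrnpl, Hnrnpll, Hnrnpul1 and Srsf1, and of these the interval of Hnrnpa0 alone reached past 2-fold.

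**Figure D1:**
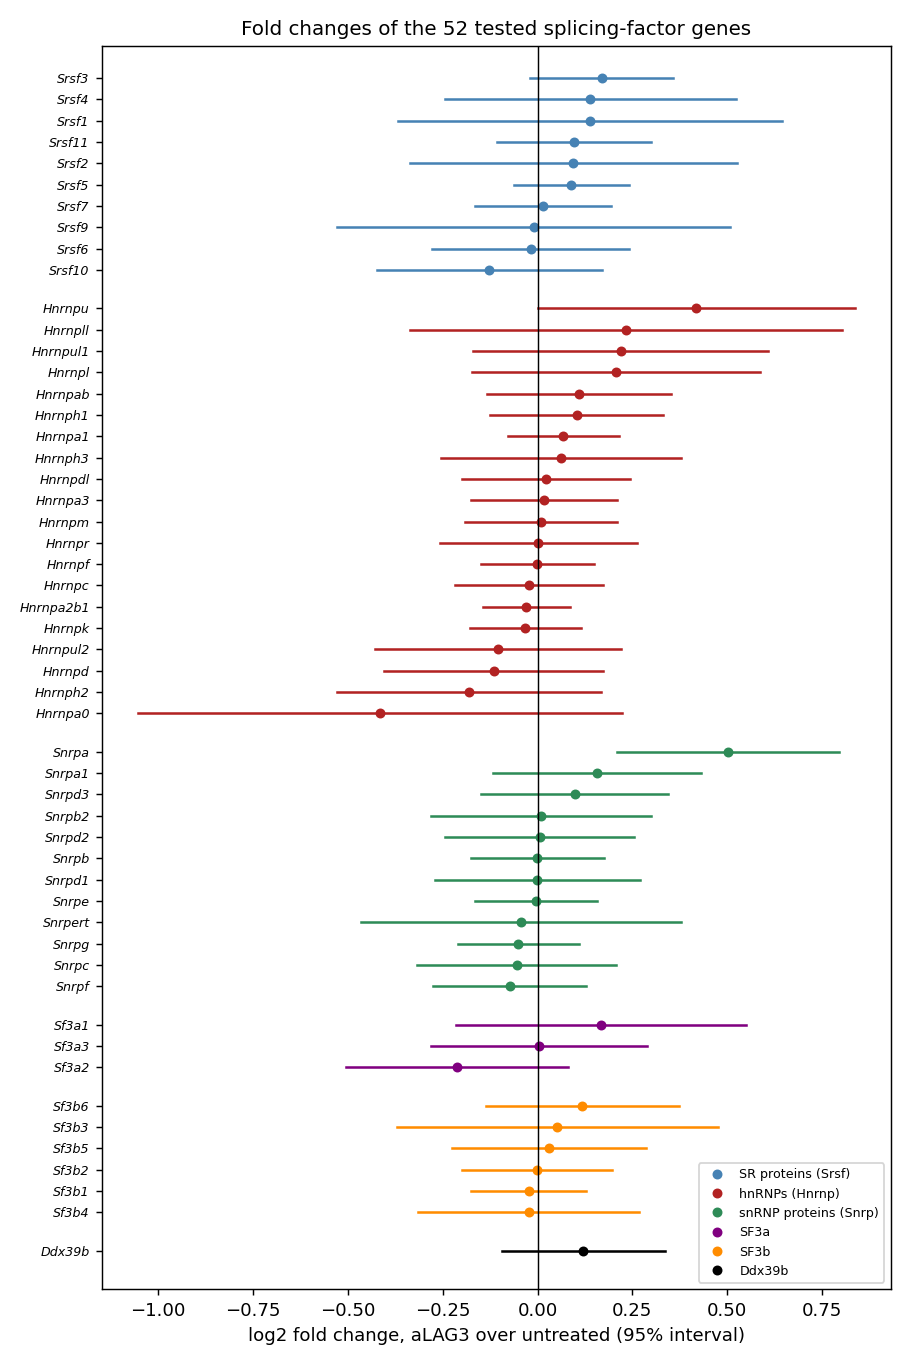
Log2 fold change of aLAG3 over untreated for each of the 52 tested genes (point) with its 95% interval from edgeR's quasi-likelihood fit (line), grouped and coloured by family. The intervals of 50 genes include 0, and those of Snrpa and Hnrnpu lie above it.

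Among the snRNP proteins, the 7 members of the Sm ring (Snrpb, Snrpd1, Snrpd2, Snrpd3, Snrpe, Snrpf and Snrpg), which encircles the U1, U2, U4 and U5 RNAs, were the most even. Their log2 fold changes ran from -0.07 for Snrpf to 0.10 for Snrpd3, with a median standard error of 0.10, and the interval of every one stayed within 1.5-fold. Snrpe had 392, 445, 461, 451 and 490 CPM in untreated libraries 1 to 5 and 427 to 462 CPM (median 446) in the aLAG3 libraries. All 6 aLAG3 values lay inside the untreated range, and the mean was 448 ± 35.7 CPM (SD, n = 5) against 445 ± 11.5 (SD, n = 6), a log2 fold change of -0.0039 ± 0.08 (SE). Snrpg, the Snrp gene with the most reads, had 457, 508, 495, 428 and 454 CPM in the untreated and 422 to 489 CPM (median 446) in the aLAG3 libraries, a log2 fold change of -0.05 ± 0.08 (SE).

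Snrpert, a member by its symbol, is annotated as a processed pseudogene, a copy of the spliced message of Snrpe. It shares 55.65% of its 50-base stretches with other transcripts, mainly those of Snrpe, so a read can often not be placed on one rather than the other. Of the reads counted on Snrpe and Snrpert, 4.93% to 10.2% per library were on Snrpert. Its CPM were 35.3, 23.1, 34.7, 46.1 and 45.0 in the untreated and 28.3 to 50.7 (median 34.7) in the aLAG3 libraries, with a log2 fold change of -0.04 ± 0.21 (SE). Whether these reads came from the pseudogene was not tested. Snrpf is uncertain for a like reason, since 89.5% of its 50-base stretches are found in other transcripts too, mostly those of the overlapping gene Ccdc38.

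Snrpa, which encodes the A protein of the U1 snRNP, bound to a stem loop of U1 RNA, had the smallest unadjusted p of the members. The untreated libraries 1 to 5 had 64.0, 65.9, 64.1, 61.5 and 54.4 CPM, and the aLAG3 libraries 6 to 11 had 88.3, 98.9, 73.1, 93.1, 60.9 and 95.8 CPM. In 5 of the 6 aLAG3 libraries the value was above every untreated one, and library 10, the shallowest, overlapped. On average this was 62.0 ± 4.53 CPM (SD, n = 5) without and 85.0 ± 14.9 CPM (SD, n = 6) with treatment. The fitted difference was 1.42-fold with a 95% interval of 1.16 to 1.73, a log2 fold change of 0.50 ± 0.14 (SE). The unadjusted p was 0.0016, which Benjamini-Hochberg adjustment over 6949 genes took to 0.999 (edgeR, quasi-likelihood), so the difference did not pass the threshold. Across 20 other settings of the fit and left-out libraries the log2 fold change stayed between 0.39 and 0.60 with an unadjusted p of 0.00023 to 0.034, and the smallest adjusted p was 0.425.

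Within primer barcode 9, Snrpa had 64.0, 64.1 and 54.4 CPM in the untreated and 88.3, 98.9 and 93.1 CPM in the aLAG3 libraries, which did not overlap. Within primer barcode 8, untreated library 4 had 61.5 CPM. This lay within the range of aLAG3 libraries 8, 10 and 11, at 73.1, 60.9 and 95.8 CPM. Within ExT18083, the only number that holds both groups, the aLAG3 library (library 10) had 60.9 CPM on 18 counts. The untreated ones had 65.9 and 64.1 CPM on 20 and 72 counts. The order was thus the other way there, on 1 aLAG3 library with few reads of Snrpa. Of the 50-base stretches of Snrpa, 20.2% also occur in transcripts of other genes, mostly BC024978. Snrpc, the other U1 protein of the set, did not share the pattern, with 122 to 171 CPM in the untreated, 113 to 176 CPM in the aLAG3 libraries and a log2 fold change of -0.05 ± 0.13 (SE). Of the U2 proteins, Snrpa1 (the A' protein) had a log2 fold change of 0.16 ± 0.13 (SE) and Snrpb2 (the B'' protein) of 0.01 ± 0.14 (SE). Snrpn, an imprinted gene known mainly from neurons, had 0 to 3 counts per library and was not tested.

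**Figure D2:**
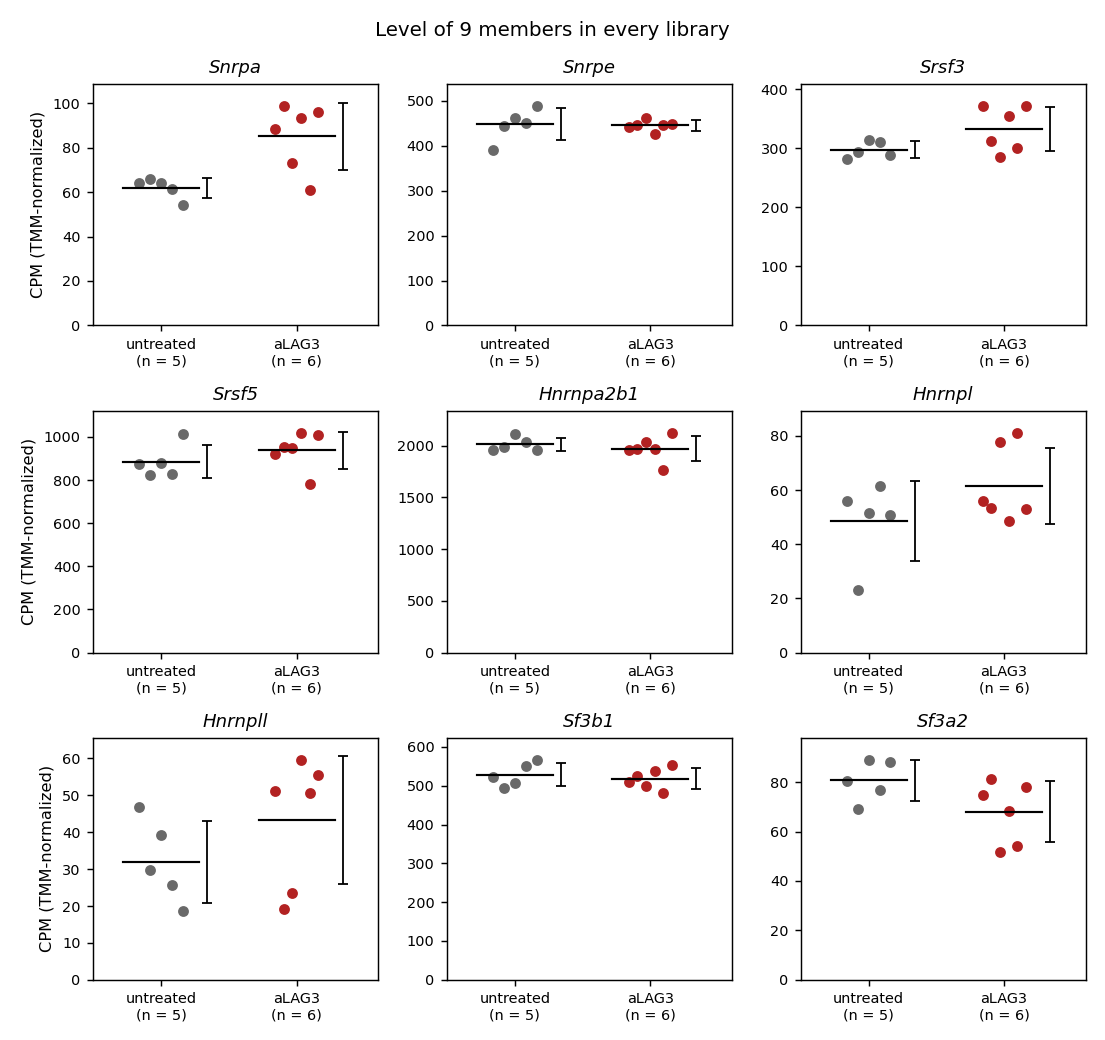
CPM with TMM-normalized library sizes of 9 members in each untreated (grey, n = 5) and aLAG3 (red, n = 6) library, where each point is 1 library, the bar is the mean and the error bar 1 SD. The aLAG3 values of Snrpa run from 60.9 to 98.9 against 54.4 to 65.9 in the untreated libraries, and in the other 8 panels the groups overlap more widely.

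No SR protein gene passed the test. Of 10 tested genes 7 had a positive log2 fold change and the median was 0.09, beside 51.1% positive genes in the whole table. Srsf3, a shuttling SR protein that takes part in splicing and in export of messages, came closest. Its CPM were 282, 293, 314, 310 and 289 in the untreated and 285 to 372 (median 334) in the aLAG3 libraries. In the aLAG3 group 3 of 6 values lay above the untreated range and the other 3 within it, and the log2 fold change was 0.17 ± 0.09 (SE), with an unadjusted p of 0.076. A processed copy of this gene, Srsf3-ps, had 7 to 57 counts per library and was left out by the rule.

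Srsf5 was the SR gene with the most reads, at 873, 824, 881, 830 and 1015 CPM in the untreated libraries. The aLAG3 libraries had 781 to 1019 CPM (median 952), which covers the whole untreated range, and the log2 fold change was 0.09 ± 0.07 (SE). Srsf7 had 324, 307, 327, 312 and 347 CPM untreated and 298 to 383 (median 320) after anti-LAG-3, a log2 fold change of 0.01 ± 0.09 (SE). Srsf11, which carries the same arginine-serine repeats, had a log2 fold change of 0.10 ± 0.10 (SE). Srsf1, the founding SR protein (SF2/ASF), was measured on few reads, with 17.9 to 46.1 CPM in the untreated and 16.5 to 44.0 CPM in the aLAG3 libraries. Its interval ran from 0.774-fold to 1.56-fold, and its variance within groups was 2.17 times what counting alone gives. Srsf12 had 0 to 5 counts per library and was not tested.

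Summed over its 11 rows, the Srsf family had 2160 ± 71.8 CPM (SD, n = 5) in the untreated and 2280 ± 191 CPM (SD, n = 6) in the aLAG3 mice. The Hnrnp sum was 6709 ± 93.5 against 6843 ± 414 CPM and the Snrp sum 2500 ± 130 against 2490 ± 123 CPM, with the same n. Sf3a stood at 191 ± 14.9 against 182 ± 19.9 CPM and Sf3b at 1225 ± 44.9 against 1222 ± 54.4 CPM. The ratio of the group means of these 5 sums was between 0.955 (Sf3a) and 1.06 (Srsf), and in each family the ranges of the groups overlapped. In the Srsf, Hnrnp, Snrp, Sf3a and Sf3b sums the lowest of the 11 values was in aLAG3 library 10.

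**Figure D3:**
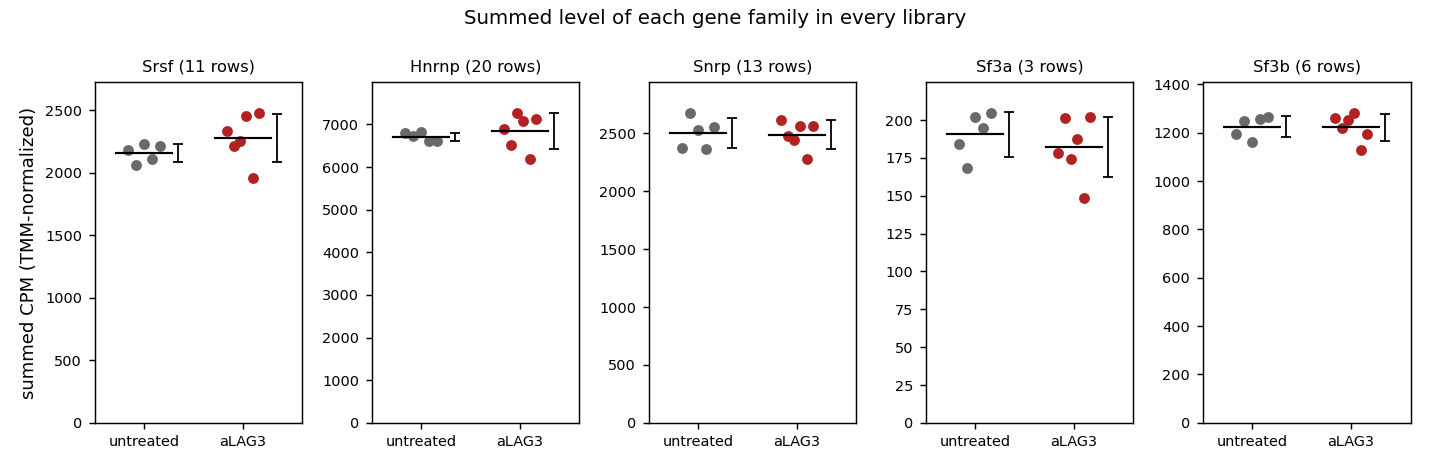
Summed CPM (TMM-normalized) of the Srsf, Hnrnp, Snrp, Sf3a and Sf3b rows in every untreated (grey, n = 5) and aLAG3 (red, n = 6) library, with the mean as a bar and 1 SD as an error bar. The axes start at 0, and the lowest aLAG3 value in each of these 5 panels is library 10.

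The hnRNPs were spread evenly around no change, with 12 of 20 log2 fold changes positive and a median of 0.01. Hnrnpa2b1, an RNA-binding protein of the hnRNP A/B group, took the most reads of the set: 1957, 1991, 2115, 2039 and 1962 CPM in the untreated and 1765 to 2125 CPM (median 1969) in the aLAG3 libraries. Of the 6 aLAG3 values 4 lay within the untreated range, 1 above it and 1, that of library 10, below it. The log2 fold change of -0.03 ± 0.06 (SE) had an interval of 0.905-fold to 1.06-fold, the narrowest of the members. Hnrnpa1, its close relative and a classical repressor of exons, had 741, 659, 723, 653 and 694 CPM untreated and 690 to 816 (median 707) after anti-LAG-3, with a log2 fold change of 0.07 ± 0.07 (SE). Hnrnpk, which binds C-rich RNA and DNA, had 655, 719, 608, 633 and 655 CPM against 565 to 669 (median 647), a log2 fold change of -0.03 ± 0.07 (SE). Of the 50-base stretches of Hnrnpa1 28.2%, and of those of Hnrnpf 61.9%, occur in transcripts of other genes, so their counts may hold reads of copies.

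Hnrnpl and Hnrnpll, the regulators of CD45 exons, did not pass the test. Hnrnpl had 55.8, 23.1, 51.6, 61.5 and 50.6 CPM in the untreated and 48.4 to 81.2 CPM (median 54.6) in the aLAG3 libraries. The single low value was in untreated library 2, and 2 aLAG3 libraries lay above the untreated range, with a log2 fold change of 0.21 ± 0.18 (SE). Without library 2 the log2 fold change was 0.10, without aLAG3 library 8 it was 0.14, and within primer barcode 9, to which library 2 does not belong, it was -0.01. Hnrnpll had 46.8, 29.7, 39.2, 25.6 and 18.8 CPM in the untreated and 51.3, 19.2, 23.6, 59.6, 50.7 and 55.5 CPM in the aLAG3 libraries. The aLAG3 values fell into 4 above and 2 within the untreated range, and the log2 fold change of 0.23 ± 0.28 (SE) had an interval of 0.792-fold to 1.74-fold. With 1 library left out it ran from 0.08 (without aLAG3 library 9) to 0.49 (without aLAG3 library 7, unadjusted p = 0.045 and adjusted p = 0.920 by edgeR), and it was 0.46 without untreated library 1, 0.10 without untreated library 5 and 0.13 without aLAG3 library 6. Ptprc itself had 1179, 1216, 1176, 1219 and 1187 CPM untreated and 960 to 1389 CPM (median 1176) after anti-LAG-3, a log2 fold change of -0.02 ± 0.07 (SE). These counts cover all CD45 isoforms together.

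Hnrnpa0 had the lowest log2 fold change of the members, -0.42 ± 0.31 (SE), on 20.6 to 36.3 CPM in the untreated and 6.64 to 40.1 CPM (median 24.4) in the aLAG3 libraries. The aLAG3 values reached both below and above the untreated range, and the unadjusted p was 0.193. With 1 library left out the log2 fold change ran from -0.61 (without aLAG3 library 8) to -0.16 (without aLAG3 library 6), and it was -0.26 without aLAG3 library 7. Without library 6 or library 7 it was no longer the lowest, since Sf3a2 was then at -0.24 and -0.29. Hnrnpul1, a relative of Hnrnpu, had 54.4 to 79.4 CPM against 55.5 to 139 CPM (median 77.0), with 3 of 6 aLAG3 values above the untreated range and a log2 fold change of 0.22 ± 0.19 (SE), which was 0.06 without aLAG3 library 8 and 0.35 without aLAG3 library 7.

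Hnrnpu encodes the scaffold attachment factor SAF-A, an abundant nuclear protein that binds RNA and chromatin. Its CPM were 484, 349, 319, 190 and 188 in untreated libraries 1 to 5 and 513, 206, 451, 525, 453 and 421 in aLAG3 libraries 6 to 11. Low values near 200 occurred in both groups, in untreated libraries 4 and 5 and in aLAG3 library 7, so the groups overlapped. The untreated mean was 306 ± 124 CPM (SD, n = 5) and that of aLAG3 428 ± 116 CPM (SD, n = 6). The log2 fold change was 0.42 ± 0.20 (SE), with an unadjusted p of 0.049 and, after Benjamini-Hochberg adjustment, 0.999 (edgeR, quasi-likelihood). This test draws the variance of a gene toward that of genes of like level. The variance of Hnrnpu within groups was 21.7 times what counting alone gives, and a test on its own spread alone was not run. The unadjusted p depended on the libraries and the filter, and leaving out 1 library took it above 0.05 for 8 of the 11. It was 0.374 within primer barcode 9, where the log2 fold change was 0.25, 0.158 without untreated library 5 (log2 fold change 0.29) and 0.00069 without aLAG3 library 7 (0.59, adjusted p = 0.401). Leaving out untreated library 1, the highest of its group, gave the largest log2 fold change, 0.69, with an unadjusted p of 0.0021. With no filter on low counts (24024 genes) the unadjusted p was 1.93e-05, the smallest of the fits run, and the adjusted p was 0.0929, at a log2 fold change of 0.42. Over the settings and left-out libraries the adjusted p (edgeR or DESeq2) ran from 0.0929 to 1.00.

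Untreated libraries 4 and 5 both carry ExT18082 and aLAG3 library 7 is the only one of ExT18081, so the 3 libraries hold the lowest ExT numbers of the series. Among the 52 tested members, Hnrnpu and Srsf2 had these as their 3 lowest libraries, as did 69 of all 6949 tested genes (0.993%). Srsf2, the SR protein SC35 of nuclear speckles, had 97.3 and 58.1 CPM in untreated libraries 4 and 5 and 56.0 CPM in aLAG3 library 7, against 101.4 to 146 CPM in the other 8. Hnrnpll was also low there, at 25.6, 18.8 and 19.2 CPM, although aLAG3 library 8 (ExT18085) was as low with 23.6 CPM. Of 158 other tested splicing genes, 3 had these as their lowest libraries, Lsm6, Pcbp1 and Ybx1. Lsm6, of the ring on U6 RNA, had 97.3, 97.5 and 103.8 CPM there and 105.9 to 133 CPM in the rest. Pcbp1, a poly(C)-binding protein of the hnRNP E group, had 94.8, 88.2 and 49.4 CPM in the 3 libraries and 263 to 318 CPM in the rest. Ybx1, a cold-shock RNA-binding protein, had 241, 193 and 144 CPM there and 314 to 561 CPM in the rest. These genes were picked after their values were seen.

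Leaving out these 3 libraries gave Hnrnpu a log2 fold change of 0.29 ± 0.12 (SE) with an unadjusted p of 0.020 and an adjusted p of 0.999, by the same test, and lowered that of Snrpa to 0.39 ± 0.18 (SE). Snrpa itself was not low in aLAG3 library 7, where it had 98.9 CPM, its highest value. In untreated libraries 4 and 5 it had 61.5 CPM and 54.4 CPM, the latter its lowest value. As a description of sequence, 67.3% of the first 300 bases of the longest coding transcript of Hnrnpu were G or C, 67.0% of those of Srsf2, 74.3% of Pcbp1, 71.7% of Ybx1 and 55.3% of Lsm6, beside a median of 61.0% over tested genes. Another 14 tested members had at least 67.0% without these as their 3 lowest libraries, among them Hnrnpa0 (76.7%), Srsf9 (76.0%), Hnrnpdl (75.7%), Hnrnpll (74.0%) and Ddx39b (72.7%). The part that the ExT number or base composition may have in these values was not tested. A fit with the ExT number as a term was not run, and since 7 of the 8 numbers hold 1 group only, its treatment effect would rest on the 3 libraries of ExT18083, where Hnrnpu had 349 and 319 CPM in the untreated and 453 CPM in the aLAG3 library.

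**Figure D4:**
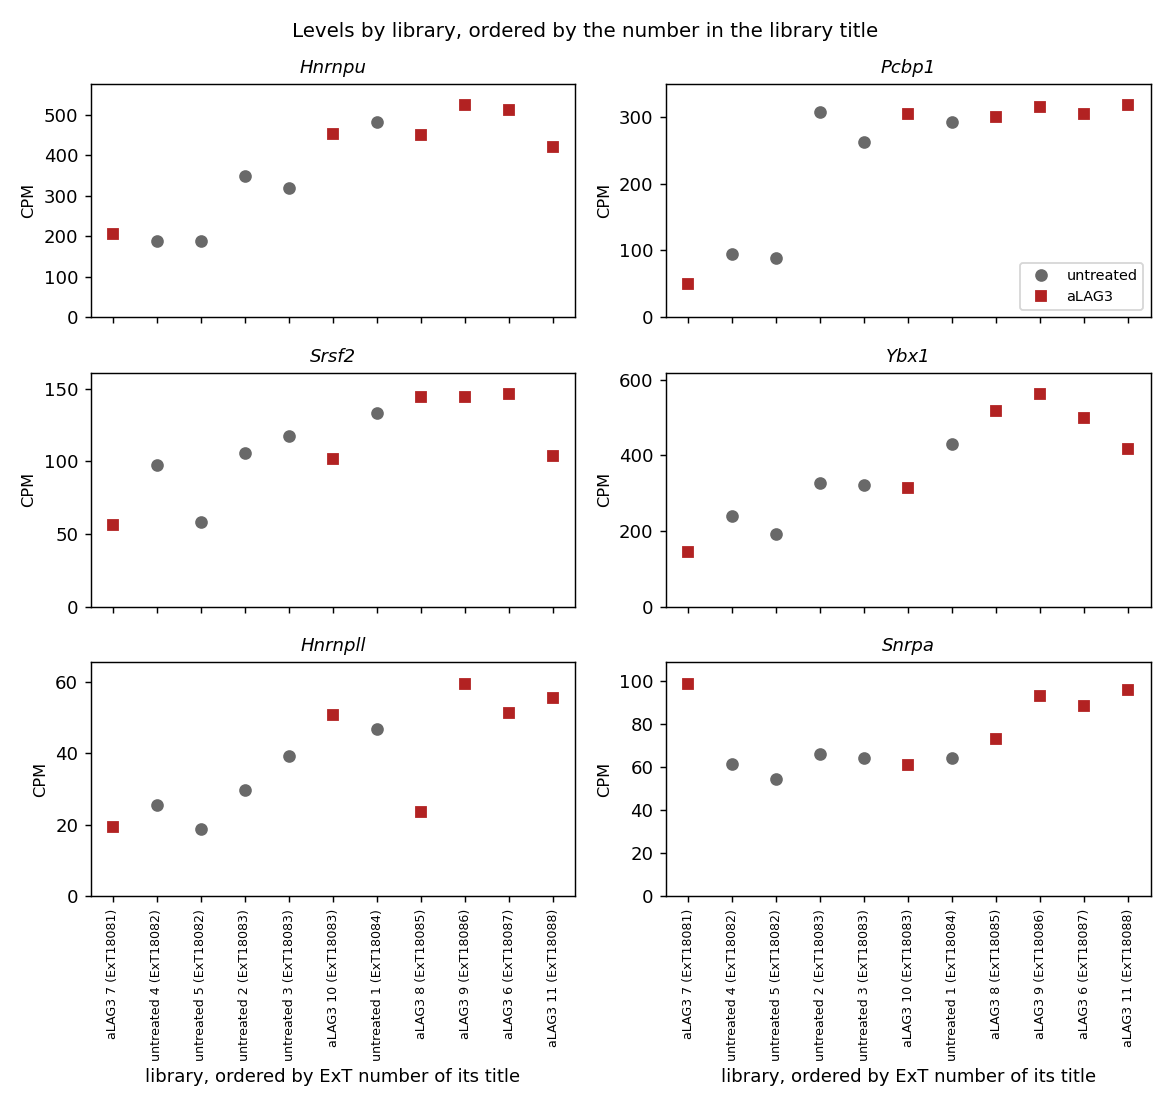
CPM of Hnrnpu, Srsf2 and Hnrnpll (left) and of Pcbp1, Ybx1 and Snrpa (right) in each library, ordered along the horizontal axis by the ExT number in the library title, with untreated libraries as grey circles and aLAG3 libraries as red squares. The 3 leftmost libraries, of both groups, hold the 3 lowest values of Hnrnpu, Srsf2, Pcbp1 and Ybx1. For Snrpa they hold 98.9 (aLAG3 library 7, the highest), 61.5 (untreated library 4) and 54.4 CPM (untreated library 5, the lowest).

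Promoter windows of Hnrnpu and Srsf2, picked after their values were seen, are shown as a description of sequence. They run from 250 bases before to 50 bases after the start of transcription (RefSeq, GRCm38.p6). Both are on the minus strand, at chr1:178337766-178338065 for Hnrnpu and chr11:116853045-116853344 for Srsf2. Whether the windows bear on the levels of these genes was not tested. The GC box GGGCGG, searched on both strands with overlaps counted, is in capitals.
Hnrnpu: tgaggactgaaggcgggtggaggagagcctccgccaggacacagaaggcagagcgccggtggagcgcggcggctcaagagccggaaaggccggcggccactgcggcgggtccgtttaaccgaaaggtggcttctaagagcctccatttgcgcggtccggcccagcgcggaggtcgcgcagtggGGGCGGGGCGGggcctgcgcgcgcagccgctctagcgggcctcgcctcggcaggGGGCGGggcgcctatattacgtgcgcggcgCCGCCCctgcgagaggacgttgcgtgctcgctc
Srsf2: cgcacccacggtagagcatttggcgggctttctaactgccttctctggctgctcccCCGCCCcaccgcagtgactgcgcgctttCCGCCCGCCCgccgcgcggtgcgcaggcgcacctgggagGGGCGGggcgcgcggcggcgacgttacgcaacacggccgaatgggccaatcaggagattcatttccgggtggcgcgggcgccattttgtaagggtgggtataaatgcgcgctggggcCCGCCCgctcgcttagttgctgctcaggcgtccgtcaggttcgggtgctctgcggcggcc
The windows held 4 and 5 GC boxes, with 41 and 39 CpG dinucleotides, and were 72.7% and 69.3% G or C. Such a box occurred in 35.7% of all 32851 windows, in 64.2% of those of tested genes and in 67.2% of the 64 windows of 47 members that matched by symbol. By family the share was 92.9% of 14 Srsf windows, 77.8% of 27 Hnrnp windows and 35.7% of 14 Snrp windows. A match describes the letters and does not mark a bound site. Hnrnpll had no entry.

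For most members the spread between libraries of a group was moderately above what counting gives. The variance within groups divided by the variance expected from counting alone had a median of 1.71 over the members (median level 147 CPM). Over all tested genes, at a median level of 49.9 CPM, it was 1.45. Hnrnpu stood highest among the members at 21.7, above 99.7% of all tested genes, followed by Hnrnpa3 at 7.03, Srsf2 at 5.51 and Hnrnpul1 at 4.47. For Hnrnpa3 the lowest value was 470 CPM in aLAG3 library 10, against 603 to 777 CPM in the other 10 libraries. At the other end, Hnrnpf had a ratio of 0.38 on 480 to 519 CPM untreated and 470 to 526 CPM after anti-LAG-3.

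**Figure D5:**
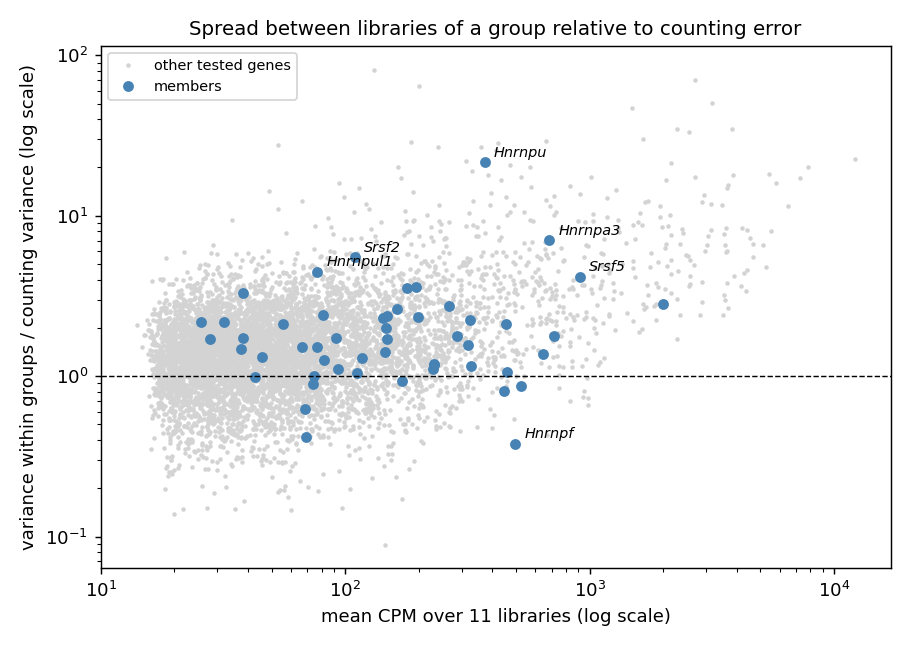
Variance of CPM within groups divided by the variance expected from counting alone (vertical, log scale) against mean CPM over 11 libraries (horizontal, log scale), for members (blue) and other tested genes (grey), with a dashed line where both variances are equal. Hnrnpu lies at 21.7 and Hnrnpf at 0.38, and the median member at 1.71.

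The SF3a and SF3b subunits showed no difference past the threshold. Sf3b1, the branch-point clamp that is often mutated in blood cancers, had 522, 494, 507, 551 and 566 CPM in the untreated and 480 to 555 CPM (median 518) in the aLAG3 libraries. No aLAG3 value was above the untreated range and 1 was below it, and the log2 fold change was -0.02 ± 0.07 (SE), with an interval of 0.886-fold to 1.09-fold. Sf3b6, which contacts the branch-point adenosine, had a log2 fold change of 0.12 ± 0.12 (SE), and Sf3b3 of 0.05 ± 0.21 (SE). Among the SF3a genes, Sf3a2 had 80.5, 69.2, 89.0, 76.8 and 88.2 CPM untreated and 51.9 to 81.3 CPM (median 71.6) after anti-LAG-3. Of the 6 aLAG3 values 3 were below the untreated range and 3 within it, and the log2 fold change was -0.21 ± 0.14 (SE) with an unadjusted p of 0.148. Sf3a1 (0.17 ± 0.19, SE) and Sf3a3 (0.0037 ± 0.14, SE) had log2 fold changes of the other sign or near 0.

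Ddx39b (UAP56), the helicase that helps the U2 snRNP onto the branch point and then joins the TREX complex for export of the message, had 158, 171, 171, 151 and 159 CPM in the untreated and 156 to 213 CPM (median 170) in the aLAG3 libraries. The highest value was in aLAG3 library 10, where many other members were lowest, and the log2 fold change was 0.12 ± 0.10 (SE). Of 15 other TREX and export genes 12 were tested, 6 with positive and 6 with negative log2 fold changes between -0.26 and 0.20, and 0 had an unadjusted p under 0.05.

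A wider list of 170 splicing genes outside these families, of which 158 were tested, gave 0 genes at an adjusted p under 0.05 (edgeR, quasi-likelihood, Benjamini-Hochberg) and 2 at an unadjusted p under 0.05 (1.27%, beside 3.73% of all tested genes), with a median log2 fold change of 0.02. Lsm7, a subunit of the Lsm ring on U6 RNA, had 48.4, 62.6, 48.9, 38.4 and 61.9 CPM in the untreated and 52.9 to 77.9 CPM in the aLAG3 libraries, a log2 fold change of 0.38 ± 0.16 (SE). Casc3, of the exon junction complex, had 62.4, 33.0, 49.8, 46.1 and 30.0 CPM against 22.0 to 40.8 CPM, a log2 fold change of -0.52 ± 0.21 (SE). In both genes the groups overlapped. The next in order were Celf2 (0.17) and Puf60 (0.26) on the positive side and Elavl1 (-0.30) and Scaf11 (-0.25) on the negative side, given as log2 fold changes.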

How the data were processed

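Bulk RNA-seq libraries were made by the study from polyA RNA of sorted cells, with PCR and without molecular identifiers in the counts. The authors trimmed reads with cutadapt 4.1, mapped them with Bowtie2 2.4.5 to GRCm38 and deposited raw counts per gene symbol. These versions are from the submitters' processing notes, and the study's text names other versions of both tools. How reads matching several genes were counted, and strand use, are not given in the sources used here. All 11 columns were matched to samples by title.

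Genes were kept by filterByExpr (17.7 CPM, or 10 counts in a library of median size, reached by 5 libraries, with 15 counts over all), TMM-normalized and tested with edgeR 4.0.16 by the two-sided quasi-likelihood test with Benjamini-Hochberg adjustment over 6949 genes (threshold 0.05), in R 4.3.3. A standard error is the size of the log2 fold change over the root of its F statistic. The test was checked on simulated counts. The alternatives were DESeq2 1.42.0, edgeR's likelihood ratio test, other scalings and filters, the primer barcode, shared sequence and left-out libraries.

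The counting variance of a gene was taken from its mean CPM and the library totals. Coordinates and shared 50-base stretches come from GENCODE M21 (GRCm38), where 96.4% of symbols were found. The members and gene lists were chosen with earlier results of these data known. Genes were named as fixed anchors, as the 3 smallest p and the highest CPM of each family, as the 3 rising and 3 falling other splicing genes of smallest p, and Ptprc. Genes named for library spread or shared sequence were chosen after their values were seen. Some markers and sequences are not reported here.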

Additional observations from a re-analysis of the deposited data

Results flagged for a closer look

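Gaps between the highest or lowest library of a group and its neighbour were checked in 76 sets of values (Dixon's criterion, which chance meets in about 1 of 20 sets), and 2 met it, fewer than the 3.8 that chance would give. Hnrnpl had 23.1 CPM in untreated library 2, against 50.6 to 61.5 CPM in the other untreated libraries. Library 2 is the only one with primer barcode 10 and had 7 counts of Hnrnpl. Hnrnpu had 206 CPM in aLAG3 library 7, against 421 to 525 CPM in the other aLAG3 libraries, and the same library was low in Srsf2, Hnrnpll, Pcbp1 and Ybx1.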

How the results depend on the processing

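No member reached an adjusted p under 0.05 in any of 20 other fits. At an unadjusted p under 0.05, 1 member (Snrpa) was left with DESeq2, total counts, a minimum count of 20 or the primer barcode as covariate, and 1 to 3 with 1 library left out. The 3, without aLAG3 library 7, were Hnrnpll, Hnrnpu and Snrpa. Over all genes, 3 passed with no filter on low counts (24024 genes), and 0 to 2 with 1 library left out, the 2 without aLAG3 library 7. The groups separated in 0 to 1 members with 1 library left out, and the 1 was Snrpa without aLAG3 library 10. The family median of Sf3b was 0.093 within primer barcode 9, against 0.015 in the main fit. With 1 library left out, the family medians ran from 0.040 to 0.098 (Srsf), -0.017 to 0.032 (Hnrnp), -0.018 to 0.018 (Snrp), -0.036 to 0.070 (Sf3a) and -0.022 to 0.050 (Sf3b). Only that of Srsf kept its sign.

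Of 32 named genes, 21 kept the sign of their log2 fold change in every fit. For the others it changed as follows, with the cause not tested. Sf3a3 was at -0.0036 in the likelihood ratio test, -0.0010 in DESeq2 and -0.0014 with RLE size factors. With the primer barcode as covariate Hnrnpk was at 0.016 and Snrpg at 0.0012. Within primer barcode 9 the values were -0.023 (Srsf7), -0.0041 (Hnrnpa1), 0.039 (Hnrnpk), -0.0096 (Hnrnpl) and -0.033 (Sf3a3). Without the libraries of ExT18081 and ExT18082, an alternative chosen after seeing the data, they were -0.094 (Srsf1), 0.024 (Sf3b1), -0.069 (Sf3a3) and -0.044 (Sf3b3). With 1 library left out, the ranges were -0.056 to 0.38 (Srsf1), -0.044 to 0.30 (Srsf2), -0.033 to 0.040 (Srsf7), -0.047 to 0.0027 (Sf3b1), -0.036 to 0.070 (Sf3a3), -0.035 to 0.14 (Sf3b3) and -0.076 to 0.024 (Ptprc).

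Mice of the groups were not paired, because the groups share no replicate number. The primer barcode was used as a covariate in an alternative fit, and a fit with the ExT number as a term was not run. Snrpn and Srsf12 had too few counts to be tested, with 1 and 3 in the deepest library. Srsf1, Hnrnpll and Hnrnpa0, at low CPM, had wide intervals, with variances within groups of 2.17, 3.28 and 2.17 times the counting variance. P-values rest on the spread between libraries, each made from 1 mouse. The quasi-likelihood test of edgeR draws the variance of a gene toward that of genes of like level. For a gene as variable as Hnrnpu, p does not measure its own spread alone.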
